A study of Mus musculus with 12 samples.

Results

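The comparison described here sets the effect of losing Dcaf11 in mouse embryos beside its effect in mouse embryonic stem (ES) cells. It used 9 of the 12 libraries of the series. KO embryo (n = 3) denotes Dcaf11 knock out embryos of the C57BL/6 strain, and control embryo (n = 2) denotes wild type embryos of the same strain. KD ESC (n = 2) denotes 129Sv ES cells with a Dcaf11 knock down, and control ESC (n = 2) denotes wild type ES cells of the 129Sv strain. The remaining 3 libraries, knock out embryos with the word arrest in their title, were not part of the comparison. The labels give no embryo stage, number of cells, knock out allele or knock down reagent, so strain, stage, and knock out or knock down all differ between the embryos and the ES cells and cannot be told apart. Nor do they say whether replicate libraries are separate embryos or cultures, so the p-values rest on a spread between libraries that may be technical. All libraries were made by Smart-seq2, a full-length cDNA method for polyadenylated RNA, and expression is given as FPKM, a level per gene length and per amount of reads.

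The protein made from Dcaf11 recruits substrates to the CUL4-DDB1 ubiquitin ligase, a complex that marks proteins for degradation by the proteasome. Zscan4 genes encode SCAN zinc-finger proteins that mouse embryos express at the two-cell stage and that a small fraction of ES cells expresses at a time, where they are linked to telomere lengthening. Mouse embryos at that stage still carry maternal RNA from the oocyte, which ES cells in culture do not.

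For each gene the embryo effect was the mean log2(FPKM + 1) of KO embryo minus that of control embryo, and the ES cell effect was that of KD ESC minus that of control ESC. The difference was the embryo effect minus the ES cell effect, so a positive difference means a higher value in the embryo effect. Of 22619 gene symbols, 13980 reached at least 1 FPKM in at least 2 of the 9 libraries and were tested. limma was fitted once to the 9 libraries, and calls needed an adjusted p below 0.05 (Benjamini-Hochberg, all genes tested).

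Of the Zscan4 genes, which were lower in both systems, 4 had a promoter in RefSeq, and these are shown because all 4 hold the same pair of motifs in nearly the same surroundings. The sequences are the 100 bases before the annotated start, 5′ to 3′ on the gene's strand, in RefSeq coordinates of GRCm38.p6, and capitals mark TATAAA and CCAAT on either strand. They lie on chromosome 7, at chr7:10905051-10905150 (minus strand) for Zscan4b, chr7:11005645-11005744 (plus) for Zscan4c, chr7:11166149-11166248 (minus) for Zscan4d and chr7:11397815-11397914 (plus) for Zscan4f.
Zscan4b: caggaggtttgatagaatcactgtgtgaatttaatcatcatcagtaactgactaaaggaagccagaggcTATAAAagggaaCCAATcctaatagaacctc
Zscan4c: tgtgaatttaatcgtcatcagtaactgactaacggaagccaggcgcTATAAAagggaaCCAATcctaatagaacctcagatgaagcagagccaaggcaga
Zscan4d: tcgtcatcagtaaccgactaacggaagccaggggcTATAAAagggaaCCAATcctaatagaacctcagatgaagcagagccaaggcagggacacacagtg
Zscan4f: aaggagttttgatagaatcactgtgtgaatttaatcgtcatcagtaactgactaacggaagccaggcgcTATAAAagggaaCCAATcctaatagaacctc

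The next 3 promoters belong to the gene called higher in both systems, Spic (chr10:88683024-88683123, minus), and to the genes called higher in KO embryo and lower in KD ESC, Atp5g1 (chr11:96075632-96075731, minus) and Zfp518b (chr5:38684827-38684926, minus). Within 250 bases before the start, TATAAA was found in 14.3% and CCAAT in 37.5% of the 27025 promoters in the table, searched on both strands. The printed stretch of Atp5g1 holds CCAAT 3 times, of which 2 overlap on opposite strands, and those of Spic and Zfp518b hold neither motif.
Spic: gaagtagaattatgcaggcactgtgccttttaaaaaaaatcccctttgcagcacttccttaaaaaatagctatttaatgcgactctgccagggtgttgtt
Atp5g1: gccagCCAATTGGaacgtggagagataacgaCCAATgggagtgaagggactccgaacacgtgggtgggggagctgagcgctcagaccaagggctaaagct
Zfp518b: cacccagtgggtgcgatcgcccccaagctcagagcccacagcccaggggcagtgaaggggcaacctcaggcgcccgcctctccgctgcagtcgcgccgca

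Dcaf11 itself (mm9 chromosome 14, 56178866 to 56188902, plus strand) stood at 3.99, 2.84 and 0.184 FPKM in KO embryo, against 2.82 and 14.3 FPKM in control embryo. It stood at 1.69 and 1.83 FPKM in KD ESC, against 6.48 and 4.52 FPKM in control ESC. The embryo groups overlapped, while both KD ESC libraries lay below both control ESC libraries. The log2 effects were −1.43 ± 0.76 (SE) in embryos and −1.22 ± 0.84 in ES cells, and neither was called (limma, adjusted p = 0.288 and 1). With weights by kind of library, described below, the ES cell effect was called (0.0345) and the embryo effect was not (0.426). Their difference was −0.21, with a 95% interval from −2.86 to 2.43. These are levels of the gene as 1 unit, and no label says which exons were deleted, so they do not check the knock out label. Trim28, the gene of the corepressor KAP1, stood at 35.2, 12.6 and 24.9 FPKM in KO embryo, against 6.94 and 9.27 FPKM in control embryo. In KD ESC it stood at 171 and 189 FPKM, against 209 and 190.2 FPKM in control ESC, and the difference of 1.52 was not called (limma, adjusted p = 0.226).

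Some markers of each kind of library followed the labels, and others did not. The oocyte genes Omt2a and Omt2b stood at 4404 FPKM or more in every embryo library and at 0.555 FPKM or less in every ES cell library. The oocyte list summed to 21872 FPKM or more in every embryo library and to 165 FPKM or less in every ES cell library. Its member Khdc3 went the other way (0.286 to 8.39 FPKM, against 16.6 to 46.9 FPKM). Pou5f1, the pluripotency regulator also known as Oct4, stood at 8.1 FPKM or less in the embryos and at 246 FPKM or more in the ES cells. The whole pluripotency list summed to more in embryos (6262 to 18419 FPKM) than in ES cells (4387 to 5117 FPKM). Its members Dppa3 and Dppa5a stood at 4949 and 620 FPKM or more in embryos, against at most 52.3 and 698 FPKM in ES cells. Dppa3 made up most of the pluripotency sum in every embryo library. Both Dppa3 and Tcl1 are on the oocyte list as well as the pluripotency list, so the sums of these lists share their values. Coverage per FPKM, which follows depth, ranged from 0.566 to 2.01 over the 9 libraries, but the number of reads is unknown. Control embryo 1 was the deepest library and stood apart, with the fewest genes at 1 FPKM or more (6573) and with Wtap alone at 24385 FPKM. Rmrp had the highest level in every ES cell library (24780 to 32506 FPKM) and in no embryo library. Replication-dependent histone genes summed to means of 33681 FPKM in KD ESC and 41531 FPKM in control ESC. In KO embryo and control embryo these means were 1014 and 820 FPKM. Whether the kinds of RNA captured differed between the 2 systems was not tested. Across genes, libraries of 1 group correlated at r = 0.892 to 0.919 for KO embryo, 0.773 for control embryo, 0.957 for KD ESC and 0.968 for control ESC. The median residual SD was 0.63 on the log2 scale among embryo libraries and 0.15 among ES cell libraries. The fit pools these, so it widens the intervals of ES cell effects and narrows those of embryo effects. Counts of calls from a fit that weights the 2 kinds of library by their own spread, called the weighted fit, are therefore given beside the pooled ones.

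Differences between group means were larger in embryos than in ES cells, where the spread between libraries was smaller too, and which system had more calls depended on how that spread was pooled. Of the 13980 genes, 1688 (12.1%) were called in embryos, 1142 higher (8.17%) and 546 lower (3.91%), and 52 (0.372%) in ES cells, 18 higher (0.129%) and 34 lower (0.243%). In the weighted fit 486 were called in embryos (3.48%; 2.45% higher and 1.02% lower) and 1547 in ES cells (11.1%; 4.21% higher and 6.85% lower), so the order of the 2 counts turned round. In fits of each system alone, limma called 0 genes in embryos (2307 at an unadjusted p under 0.05) and 128 in ES cells. The SD of the effect across genes was 1.15 in embryos and 0.55 in ES cells, and 34.2% of genes in embryos but 6.23% in ES cells moved by at least 1 on the log2 scale. Libraries of the groups did not overlap for 32.3% of genes in embryos and 57.6% in ES cells, where only 4 libraries were compared. Across the 13980 genes, which share libraries within each effect but none between the effects, the 2 effects correlated at r = 0.0132 (Spearman's rho = 0.0030). Leaving out 1 library moved these counts. Without control embryo 1 or 2, 2685 and 3941 genes were called in embryos, without KO embryo 3 1117, and without any 1 of the ES cell libraries 750 to 837. Scaling moved the balance of directions, and 67.7% of the embryo calls were higher as deposited, 38.2% with median-of-ratios scaling, 54.1% with quantile normalization, 52.9% without the trend with gene length and 48.8% without control embryo 1. In ES cells, limma called 0 genes without KO embryo 1 (908 at an unadjusted p under 0.05), 8 without KO embryo 3 and 19 without KO embryo 2, against 27 without KD ESC 1.

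**Figure D1:**
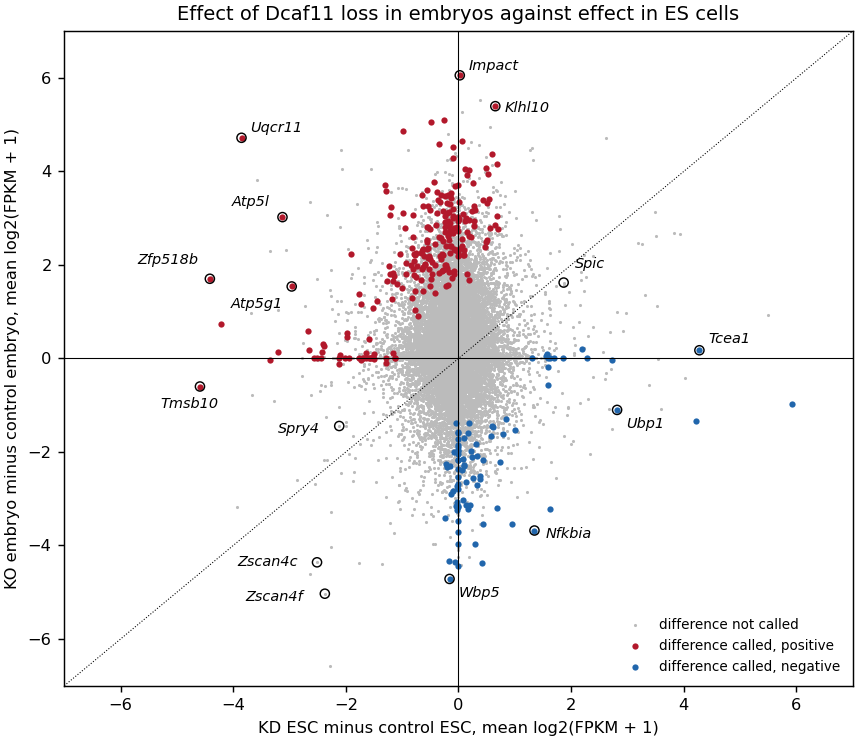
Effect of Dcaf11 loss in embryos (vertical axis, KO embryo minus control embryo) against that in ES cells (horizontal axis, KD ESC minus control ESC) on the log2(FPKM + 1) scale, 1 point per gene tested, with equal effects on the dotted line. The 229 genes with a called positive difference are red and the 86 with a negative one blue, and Impact and Wbp5 lie near the vertical axis while Tcea1 and Tmsb10 lie near the horizontal one.

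The difference of the effects was called for 315 genes (2.25%), 229 with a positive value (1.64%) and 86 with a negative one (0.615%). By the weighted fit, 461 were called (3.3%), 342 positive (2.45%) and 119 negative (0.851%). Of the 54 called differences named in the text, 49 were called with these weights, and those of Mrps27, Nop10, Ptx3, Psma2 and Lenep were not (limma, adjusted p = 0.054, 0.054, 0.0741, 0.0848 and 0.0881). Of the 229, 187 were called in embryos and not in ES cells, 30 in ES cells and not in embryos, 2 in both in opposite directions, and 10 in neither. Of the 86, these numbers were 70, 14, 1 and 1. The 2 effects had opposite signs for 160 of the 229 (69.9%) and for 41 of the 86 (47.7%). Of all 13980 genes, 4644 were higher in KO embryo and lower in KD ESC, and 2125 the other way round. Selecting on the difference favours opposite signs, so these shares are partly set by the selection. Under 1 FPKM in all 4 ES cell libraries, where no ES cell effect could be seen, stood 12 of the 229 (5.24%) and 39 of the 86 (45.35%), against 9.66% of all genes. In turn, 31 (13.5%) and 11 (12.8%) stood under 1 FPKM in all 5 embryo libraries, against 16.2% of all genes. The median difference of all genes was 0.32, which became 0.01 both with median-of-ratios scaling and with quantile normalization. With those scalings 39.8% and 56.7% of the called differences were positive, against 72.7% as deposited, and without the trend with gene length 46.4% were. Of the 229 positive calls 95 and 124 held under these scalings, and of the 86 negative ones 65 and 58. By limma no difference was called without KD ESC 1 or without KD ESC 2 (1870 and 2045 genes at an unadjusted p under 0.05, against 2755 with all libraries), 12 without control ESC 1, 12 without control ESC 2, 57 without KO embryo 1 and 63 without KO embryo 3. Every called difference named below was lost when any 1 of the 4 ES cell libraries was left out. Without control embryo 1 or control embryo 2, 1313 and 2796 were called, which included all 315.

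Zscan4 genes were lower in both systems. Their summed level was 87.3, 59.0 and 47.2 FPKM in KO embryo, against 374 and 990.2 FPKM in control embryo. It was 5.28 and 4.84 FPKM in KD ESC, against 54.2 and 44.0 FPKM in control ESC. In each system every Dcaf11-deficient library lay below every control, and the control ESC level was near that of KO embryo. The sum was 10.6-fold lower in KO embryo and 9.70-fold lower in KD ESC from the means, and its log2 effects were −3.26 and −3.04. In embryos it was 5.80-fold lower when control embryo 2 was left out and 15.4-fold lower when control embryo 1 was, and in ES cells the factor was 8.69 to 10.7 with 1 of the 4 libraries left out. The difference of the 2 effects of the sum, −0.22, was not tested. A bulk level cannot tell fewer expressing cells from less RNA in each cell.

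All 6 Zscan4 members, which lie between 11379590 and 11987667 on mm9 chromosome 7, had negative effects in both systems. Zscan4a stood at 23.6, 32.4 and 10.4 FPKM in KO embryo, against 87.3 and 185 FPKM in control embryo, and at 0 and 0.521 FPKM in KD ESC, against 9.85 and 6.54 FPKM in control ESC. Its effects were −2.60 and −2.88, with a difference of 0.27 (95% interval −1.65 to 2.19). Zscan4c stood at 14.1, 2.28 and 11.0 FPKM in KO embryo, against 112 and 262 FPKM in control embryo, and at 1.06 and 1.37 FPKM in KD ESC, against 11.8 and 11.4 FPKM in control ESC. Its effects were −4.36 and −2.51, with a difference of −1.85 that was not called (interval −4.22 to 0.52). Zscan4d had the smallest pair of effects, −1.73 and −1.62, and its difference was −0.11 (interval −2.06 to 1.83). In embryos 4 of the 6 were called lower, and Zscan4b and Zscan4d were not (adjusted p = 0.207 and 0.0926). In ES cells limma called none of the 6 in the pooled fit (4 at an unadjusted p under 0.05), and all 6 were called lower with weights by kind of library. With those weights 2 of the 6, Zscan4c and Zscan4e, were called lower in embryos, while Zscan4a and Zscan4f were not (adjusted p = 0.125 and 0.128). For Zscan4b the KO embryo and control embryo libraries overlapped (0.464 to 1.46 FPKM, against 1.26 and 47.3 FPKM), and without control embryo 2 its difference turned to 1.85. Zscan4 copies have nearly the same sequence, and values of single members are uncertain.

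Most genes of the two-cell list had lower values in both systems. Of 26 tested members of the two-cell list, which includes Zscan4, 17 had lower values in both systems (65.4%, against 20.3% of all genes tested). For 10 of the 26 (38.5%, against 3.25% of all genes) the libraries lay below every control in both. These 10 were 5 Zscan4 members, Gm5662, Gm2022, Gm8300, Usp17lc and Zfp352. Gm8300 stood at 39.3, 26.4 and 20.8 FPKM in KO embryo, against 156 and 222 FPKM in control embryo. In KD ESC it stood at 0 and 0.827 FPKM, against 6.69 and 7.21 FPKM in control ESC. Its effects were −2.69 and −2.56, and its difference of −0.14 had an interval from −1.53 to 1.25. Gm5662 had effects of −2.62 and −1.88, Gm2022 of −3.27 and −2.26, and the deubiquitinase gene Usp17lc of −2.97 and −1.28, and none of these differences was called. Of the list 8 members fell and 2 rose in embryos, and limma called none in ES cells (9 lower at an unadjusted p under 0.05), where 12 were called lower with weights by kind of library. With the same weights 3 fell and 1 rose in embryos. Of all genes tested, 3.91% fell and 8.17% rose in embryos, or 1.02% and 2.45% with weights, and 6.85% fell in ES cells with weights. The list median was −1.19 in embryos and −0.82 in ES cells.

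**Figure D2:**
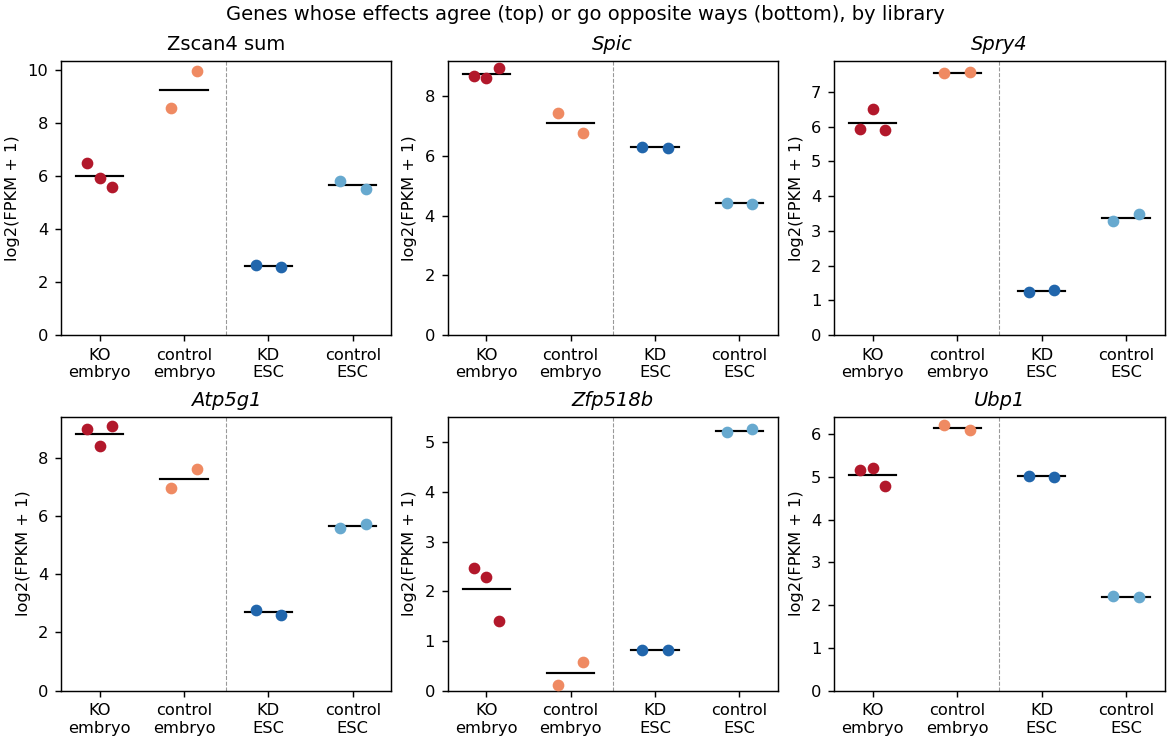
Expression by library on the log2(FPKM + 1) scale, with points for libraries and bars for group means, for the Zscan4 sum, Spic and Spry4 (effects in the same direction) and Atp5g1, Zfp518b and Ubp1 (opposite directions). In each panel the Dcaf11-deficient libraries do not overlap the controls of the same system, and in the lower panels the order of deficient and control libraries turns round between embryos and ES cells.

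The 1 two-cell member with a called difference was Dppa2, which encodes an upstream activator of two-cell genes. It stood at 263, 205 and 276 FPKM in KO embryo, against 48.2 and 47.5 FPKM in control embryo, and at 20.8 and 22.0 FPKM in KD ESC, against 33.1 and 30.8 FPKM in control ESC. The groups did not overlap in either system, and the direction differed. The effects were 2.34 ± 0.22 (SE) and −0.56 ± 0.24, of which the first was called (limma, adjusted p = 0.00268) and the second was not (0.776), and the difference was 2.90 (adjusted p = 0.0176). With weights by kind of library both effects were called, in opposite directions (0.0208 and 0.0161). Dux, a two-cell transcription factor gene, stood at 0.0765 to 1.70 FPKM in the 9 libraries, and neither effect was called.

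Called in both systems in the same direction were 2 genes (0.0143% of genes tested), which is 0.118% of the embryo calls and 3.85% of the ES cell calls. Spic, which encodes an ETS-family transcription factor, rose in both (mm9 chromosome 10, 88138015 to 88145768). It stood at 406, 387 and 493 FPKM in KO embryo, against 174 and 109 FPKM in control embryo, and at 78.4 and 75.8 FPKM in KD ESC, against 20.6 and 20.1 FPKM in control ESC. The effects were 1.62 ± 0.25 (SE, limma adjusted p = 0.00936) and 1.87 ± 0.27 (0.0497), and their difference of −0.24 had an interval from −1.10 to 0.61. Spry4, which encodes a feedback inhibitor of receptor tyrosine kinase signalling, fell in both. It stood at 60.5, 89.7 and 58.9 FPKM in KO embryo, against 186 and 189.9 FPKM in control embryo, and at 1.36 and 1.46 FPKM in KD ESC, against 8.82 and 10.1 FPKM in control ESC. The effects were −1.44 ± 0.28 (adjusted p = 0.019) and −2.12 ± 0.30 (0.0478), with a difference of 0.67 (interval −0.29 to 1.64). Both ES cell calls lay close to the threshold. In the weighted fit Spic was called in both systems and Spry4 in ES cells but not in embryos (adjusted p = 0.0802). Over the 22 alternative fits, Spic was called in both systems in 5 and Spry4 in 4, while the directions of all 4 effects held in every one.

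By the weighted fit, 63 genes (0.451%) were called in both systems in the same direction, 44 higher and 19 lower. They made up 13.0% of the 486 embryo calls and 4.07% of the 1547 ES cell calls. Among those that rose were Mt1, a metallothionein that binds zinc, Mrpl22, a mitochondrial ribosomal protein, and the imprinted deubiquitinase gene Usp29. Mt1 stood at 1852, 1348 and 2241 FPKM in KO embryo, against 369 and 456 FPKM in control embryo, and at 481 and 465 FPKM in KD ESC, against 198 and 244 FPKM in control ESC. Mrpl22 had effects of 2.31 and 1.24, and Usp29 of 2.24 and 1.17. Among those that fell were Zscan4c, Zscan4e and Id1, which encodes an inhibitor of helix-loop-helix transcription factors and had effects of −2.78 and −0.93. The embryo effect was the larger one in all of the 16 named genes of this kind except Spic. In this fit embryo effects have the larger SE (0.72 against 0.25 for Zscan4c, 0.30 against 0.10 for Spic). A call in embryos thus needed a larger effect, so this order is partly set by the selection and is not a result about the genes.

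A difference that misses the threshold does not show equal effects, so genes whose 95% interval of the difference lay within −1 to 1 were counted separately. There were 479 (3.43%), or 153 (1.09%) with weights by kind of library, but 415 of them stood under 1 FPKM in all 5 embryo libraries, where no embryo effect could be seen. Only 4 had a called embryo effect. The ribosomal protein gene Rpl4 stood at 172, 128 and 165 FPKM in KO embryo, against 69.7 and 60.9 FPKM in control embryo, and at 1563 and 1111 FPKM in KD ESC, against 599 and 582 FPKM in control ESC. Its effects were 1.22 and 1.16, with a difference of 0.07 (interval −0.68 to 0.82). Rpl17, another large-subunit protein gene, had effects of 1.22 and 0.99 (interval of the difference −0.53 to 0.99). Jmjd6, which encodes a JmjC-domain hydroxylase, had effects of 0.95 and 0.78 (interval −0.61 to 0.94). Pfkfb4, of glycolytic control, fell to at most 0.18 FPKM in KO embryo, against 0.68 and 1.05 FPKM in control embryo. It stood at 0.698 and 0.847 FPKM in KD ESC, against 1.51 and 1.79 FPKM in control ESC (effects −0.81 and −0.58). None of these 4 was called in ES cells, where adjusted p was 0.165 to 0.595. With weights by kind of library this turned round, and all 4 were called in ES cells (limma, adjusted p = 0.00322 to 0.0249) and none in embryos (0.0996 to 0.272).

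Called in both systems in opposite directions were 3 genes (0.0215%), and 34 (0.243%) with weights by kind of library. None of the 3 was among the 34, since with weights their embryo effects were not called (limma, adjusted p = 0.074 for Atp5g1, 0.088 for Zfp518b and 0.122 for Ubp1). Atp5g1 encodes the c subunit of mitochondrial ATP synthase (mm9 chromosome 11, 95934107 to 95937008). It stood at 510.4, 333 and 542 FPKM in KO embryo, against 122 and 195 FPKM in control embryo, and at 5.85 and 5.06 FPKM in KD ESC, against 46.5 and 51.9 FPKM in control ESC. The effects were 1.54 ± 0.31 (SE, limma adjusted p = 0.0207) and −2.96 ± 0.34 (0.0184), and the difference was 4.50 ± 0.45 (0.0176). Zfp518b, a zinc-finger gene (chromosome 5, 39059723 to 39076065), stood at 4.50, 3.85 and 1.65 FPKM in KO embryo, against 0.0821 and 0.488 FPKM in control embryo. In KD ESC it stood at 0.765 and 0.756 FPKM, against 35.9 and 37.2 FPKM in control ESC, and the difference was 6.12 ± 0.58. Ubp1, which encodes a transcription factor of the CP2 family (chromosome 9, 113840052 to 113886319), went the other way. It stood at 34.7, 35.9 and 26.6 FPKM in KO embryo, against 73.1 and 67.1 FPKM in control embryo, and at 31.8 and 31.0 FPKM in KD ESC, against 3.63 and 3.56 FPKM in control ESC, a difference of −3.92 ± 0.37. For all 3 genes the groups did not overlap in either system. Over the 22 alternative fits Atp5g1 was called in both systems in 10, Ubp1 in 9 and Zfp518b in 8, and the difference of each was called in 17.

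Many genes of the protein synthesis machinery rose in KO embryo, while those called in KD ESC, all of them only with weights by kind of library, went in both directions. Of 79 cytosolic ribosomal protein genes 48 rose in embryos (60.8%, against 8.17% of all genes) and 0 fell, limma called none in ES cells (4 higher and 3 lower at an unadjusted p under 0.05), and 11 had a called positive difference (13.9%, against 1.64% of all genes). In the weighted fit 23 rose (29.1%, against 2.45% of all genes) and 0 fell in embryos, and 21 had a positive difference (26.6%, against 2.45%). In ES cells 6 rose and 7 fell in that fit, where 4.21% of all genes rose and 6.85% fell. The list median was 1.86 in embryos and −0.11 in ES cells. Of the members, 30 were higher in both systems (38.0%, against 24.9% of all genes). Another 47 were higher in KO embryo and lower in KD ESC (59.5%, against 33.2% of all genes). The summed level was 13268, 9057 and 13474 FPKM in KO embryo, against 2794 and 3790 FPKM in control embryo. In KD ESC it was 17476 and 17255 FPKM, against 17686 and 17247 FPKM in control ESC, a range that overlaps. Rplp1, of the ribosomal stalk, stood at 649, 502 and 509.7 FPKM in KO embryo, against 151 and 179 FPKM in control embryo, and at 520.4 and 508 FPKM in KD ESC, against 846 and 897 FPKM in control ESC. Its groups were separate in both systems with opposite directions, and the difference was 2.50 ± 0.25 (SE, limma adjusted p = 0.0176). Rps15 had effects of 2.06 and −0.47, and Rps20 of 1.92 and −0.22. Ribosomal protein genes have many processed copies in the mouse genome, and the labels do not say how reads were divided among them.

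Mitochondrial ribosomal protein genes rose in embryos for 23 of 76 members (30.3%, against 8.17% of all genes). The 1 called difference, that of Mrps27 (3.01 ± 0.52), is a share of 1.32%, against 1.64% of all genes, and was not called with weights by kind of library. With those weights 9 rose in embryos (11.8%, against 2.45% of all genes) and 6 in ES cells (7.9%, against 4.21%). Of 56 translation factor genes 20 rose (35.7%, against 8.17% of all genes) and 1 fell in embryos, and 3 had a called positive difference (5.36%, against 1.64%). By the weighted fit, 12 rose in embryos (21.4%, against 2.45%) and 10 had a positive difference (17.9%, against 2.45%). In ES cells 4 rose and 2 fell in that fit, where 4.21% of all genes rose and 6.85% fell. Eif3a, the largest subunit of initiation factor eIF3, stood at 203, 181 and 193 FPKM in KO embryo, against 41.1 and 31.1 FPKM in control embryo, and at 301 and 244 FPKM in KD ESC, against 185 and 207 FPKM in control ESC. Its difference of 1.93 ± 0.30 was called, with an embryo effect of 2.40 and an ES cell effect of 0.46 that was called with weights (0.0483) and not in the pooled fit. Eif2b3, a subunit of the exchange factor of eIF2, had effects of 3.01 and −0.09 (difference 3.11), and Eif2a of 1.45 and −0.62 (difference 2.07). Of 37 spliceosome genes 6 rose in embryos (16.2%, against 8.17% of all genes), or 2 with weights (5.4%, against 2.45%). Snrpa1 of the U2 particle had the 1 called difference (2.95), a share of 2.7%, against 1.64% of all genes.

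**Figure D3:**
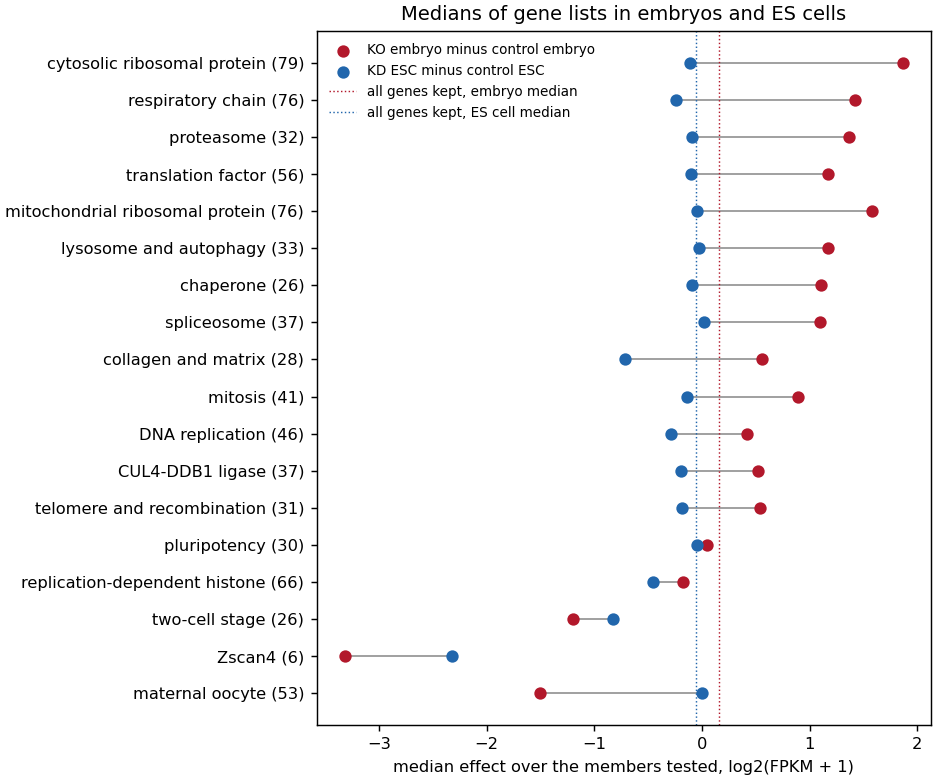
Median effect over the tested members of 18 gene lists (number of members in brackets) on the log2(FPKM + 1) scale in embryos (red) and ES cells (blue), ordered by the median difference, with dotted lines at the medians of all genes tested (0.16 in embryos and −0.06 in ES cells). Cytosolic ribosomal protein, respiratory chain and proteasome lists are above the all-gene line in embryos and below it in ES cells, Zscan4 is low in both systems, and the maternal oocyte list is low in embryos and at 0 in ES cells.

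Some respiratory chain genes rose in KO embryo, while most had lower values in KD ESC. Of 76 members 18 rose in embryos (23.7%, against 8.17% of all genes), and 0 rose and 1 fell in ES cells. A positive difference was called for 12 (15.8%, against 1.64% of all genes). The median was 1.42 in embryos and −0.25 in ES cells, and 47 of the 76 were higher in KO embryo and lower in KD ESC (61.8%, against 33.2% of all genes). With weights by kind of library 7 rose in embryos (9.21%, against 2.45% of all genes) and 12 had a positive difference (15.8%, against 2.45%). In ES cells 19 fell and 1 rose with weights, where 6.85% of all genes fell and 4.21% rose. Beside Atp5g1, the largest differences were those of Uqcr11, of complex III, and Atp5l, of ATP synthase. Uqcr11 stood at 17.7, 9.75 and 90.4 FPKM in KO embryo and was listed at 0 in both control embryos, and it stood at 0 and 1.55 FPKM in KD ESC, against 20.6 and 23.6 FPKM in control ESC. Its difference of 8.57 ± 1.29 (limma, adjusted p = 0.0275) was the largest of the named genes. Atp5l stood at 27.1, 9.72 and 22.4 FPKM in KO embryo, against 0.266 and 3.39 FPKM in control embryo, and at 2.32 and 1.69 FPKM in KD ESC, against 24.9 and 25.3 FPKM in control ESC (difference 6.15 ± 0.91). Uqcrh, the hinge protein of complex III, had effects of 1.66 and −1.27 (difference 2.93), and Ndufa2, of complex I, of 1.82 and −1.16 (difference 2.98). A gene of general use listed at 0 is not read as absent.

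Of 32 proteasome genes 10 rose in embryos (31.25%, against 8.17% of all genes), and limma called none in ES cells (2 lower at an unadjusted p under 0.05). A positive difference was called for 4 (12.5%, against 1.64% of all genes). In the weighted fit 2 rose in embryos (6.25%, against 2.45% of all genes) and 3 had a positive difference (9.38%, against 2.45%). In ES cells 4 fell, where 6.85% of all genes did. The lid subunit gene Psmd7 stood at 305, 275 and 307 FPKM in KO embryo, against 36.2 and 48.0 FPKM in control embryo, and at 114 and 81.6 FPKM in KD ESC, against 99.2 and 104 FPKM in control ESC. The ES cell groups overlapped, and the difference was 2.88 ± 0.34 (limma, adjusted p = 0.0176). The core subunit genes Psma6, Psmb7 and Psma2 had differences of 3.69, 2.60 and 2.90, and Psma2 was called for the difference without being called in embryos (effect 1.17, adjusted p = 0.064). The summed level of the list was 1985, 1528 and 2003 FPKM in KO embryo, against 535 and 653 FPKM in control embryo, and 1096 and 1096 FPKM in KD ESC, against 1212 and 1208 FPKM in control ESC. Of 26 chaperone genes 10 rose in embryos (38.5%, against 8.17% of all genes), or 7 with weights (26.9%, against 2.45%). A positive difference was called for 3 (11.5%, against 1.64%), or 5 with weights (19.2%, against 2.45%). The 3 were Tcp1, of the CCT folding complex (2.23), the prefoldin gene Pfdn2 (2.84) and the heat shock protein gene Hsp90ab1 (1.50). The medians of the ribosomal protein, respiratory chain, proteasome and chaperone lists stayed above 0 for the difference with TPM scaling, median-of-ratios scaling, quantile normalization and correction for gene length. Without control embryo 1 the called differences of the cytosolic ribosomal protein, respiratory chain and proteasome genes were 32, 17 and 9 positive ones, and without control embryo 2 they were 43, 31 and 14. With median-of-ratios scaling they fell to 3 of the cytosolic ribosomal protein genes, 6 of the respiratory chain and 1 of the proteasome.

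**Figure D4:**
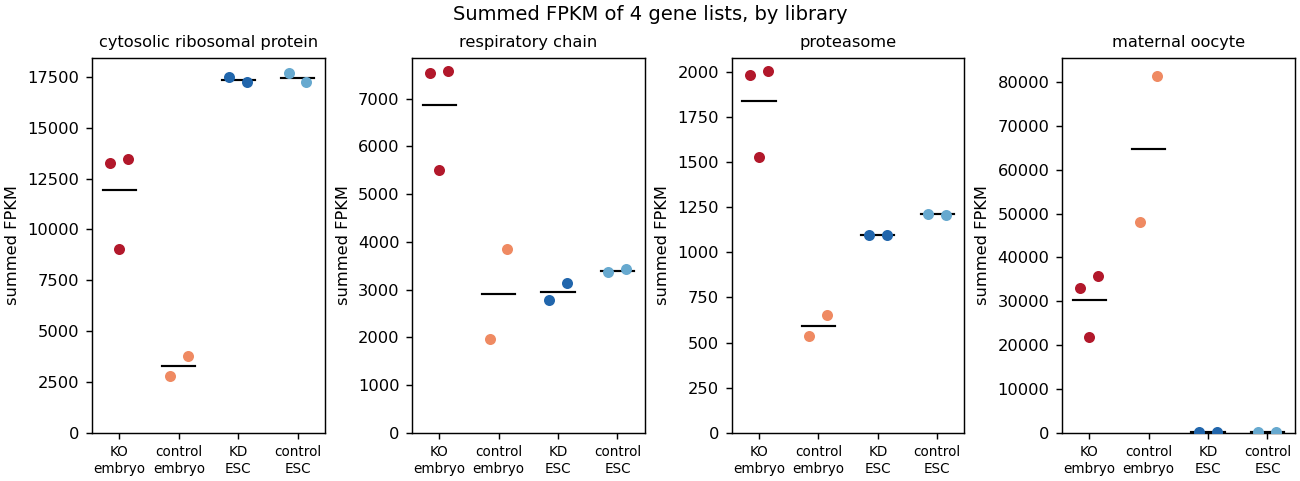
Summed FPKM per library, with points for libraries and bars for group means, of the cytosolic ribosomal protein (79 genes), respiratory chain (76), proteasome (32) and maternal oocyte (53) lists. The 3 KO embryo libraries lie above both control embryos in the first 3 panels and below them in the last, while the KD ESC and control ESC points lie close together in each.

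Genes of the CUL4-DDB1 ligase and its regulators were a list of 37, of which 7 rose and 1 fell in embryos and limma called none in ES cells (1 higher and 2 lower at an unadjusted p under 0.05). That is a share of 18.9% higher in embryos, against 8.17% of all genes, and with weights by kind of library 1 of the 37 rose (2.7%, against 2.45% of all genes). The 1 called difference was that of Gps1, a subunit of the COP9 signalosome, which regulates cullin ligases. It stood at 22.2, 19.7 and 18.5 FPKM in KO embryo, against 0.111 and 0.465 FPKM in control embryo, and at 14.9 and 14.1 FPKM in KD ESC, against 14.8 and 11.9 FPKM in control ESC (difference 3.93 ± 0.43, limma adjusted p = 0.0176). Of 31 telomere and recombination genes 6 rose in embryos, and the telomerase and box H/ACA particle genes Nhp2 and Nop10 had called differences (2.66 and 1.81). Nop10 stood at 248, 255 and 248 FPKM in KO embryo, against 131 and 114 FPKM in control embryo, and at 51.1 and 51.2 FPKM in KD ESC, against 101 and 76.7 FPKM in control ESC. It thus had separate groups with opposite directions, of which the embryo effect was called (1.03) and the ES cell effect was not (−0.77). By the weighted fit, the ES cell effect was called (limma, adjusted p = 0.011), and the embryo effect (0.186) and the difference (0.054) were not. Of 46 DNA replication genes 10 rose and 1 fell in embryos, and the helicase subunit genes Mcm3 and Mcm6 had differences of 3.35 and 2.43. Of 41 mitosis genes 8 rose and 1 fell in embryos, and the cell-cycle kinase gene Cdk1 had a difference of 2.22. Of 33 lysosome and autophagy genes 10 rose in embryos, and Map1lc3b and Gabarapl2, which encode autophagosome proteins, had differences of 2.93 and 2.71. The shares that rose were 19.4% of the telomere, 21.7% of the DNA replication, 19.5% of the mitosis and 30.3% of the lysosome and autophagy genes, against 8.17% of all genes. With weights 1, 3, 1 and 2 of them rose, and the 1 mitosis gene is a share of 2.44%, against 2.45% of all genes.

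Some of the largest differences came from genes that rose in embryos and had an ES cell effect near 0. Impact, a paternally expressed imprinted regulator of translation (mm9 chromosome 18), stood at 85.9, 170.3 and 147 FPKM in KO embryo, against 0.335 and 1.86 FPKM in control embryo, and at 55.2 and 64.6 FPKM in KD ESC, against 60.6 and 56.8 FPKM in control ESC. Its difference was 6.03 ± 0.62 (SE, limma adjusted p = 0.0176), and its ES cell effect was 0.02 ± 0.46. Mcts2, an imprinted retrogene, stood at 111, 89.0 and 80.7 FPKM in KO embryo, against 0.996 and 2.77 FPKM in control embryo, and at 37.5 and 40.2 FPKM in KD ESC, against 48.3 and 44.7 FPKM in control ESC. Both imprinted genes were thus near 0 in control embryo and well expressed in the other 3 groups. Dnph1, a nucleotide hydrolase gene, was listed at 0 in both control embryos and stood at 12.3 to 32.3 FPKM elsewhere. Ankmy2 had a difference of 5.55. Klhl10, a kelch gene of the germ line, stood at 70.5, 59.9 and 32.0 FPKM in KO embryo and at 1.38 FPKM or less in all other libraries, with a difference of 4.74. Of the imprinted list 4 of 30 members rose in embryos and 0 fell, with and without weights, and Impact and Mcts2 were the 2 with a called difference. The share that rose is 13.3%, against 8.17% of all genes, or 2.45% of all genes with weights. The share with a called positive difference is 6.67%, against 1.64% of all genes.

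**Figure D5:**
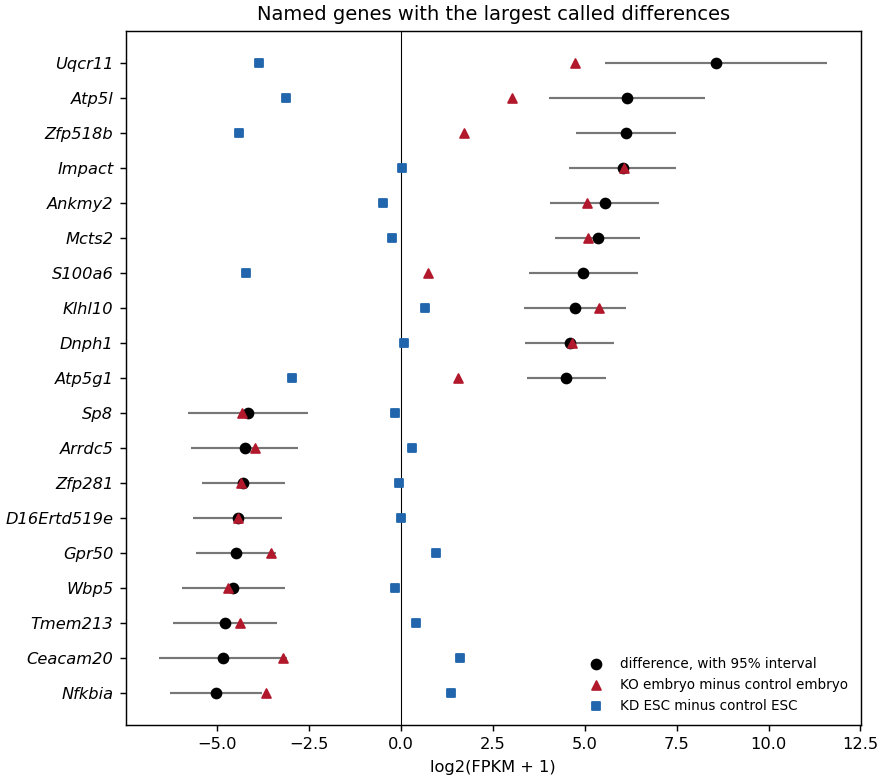
The named genes with the largest called differences, 10 positive and 9 negative, with the difference and its 95% interval in black, the embryo effect as a red triangle and the ES cell effect as a blue square, all on the log2(FPKM + 1) scale. Most differences follow the embryo effect, while those of S100a6, Zfp518b, Atp5l, Atp5g1 and Uqcr11 owe much of their size to the ES cell effect.

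Zfp281, which encodes a zinc-finger regulator of pluripotency, went the other way in embryos. It stood at 0.0551, 0.0574 and 0.067 FPKM in KO embryo, against 15.0 and 28.0 FPKM in control embryo, and at 46.7 and 47.2 FPKM in KD ESC, against 47.6 and 50.1 FPKM in control ESC. Its difference was −4.29 ± 0.48 (SE, limma adjusted p = 0.0176). Wbp5, an X-linked gene, stood at 0.937, 1.13 and 0.562 FPKM in KO embryo, against 30.5 and 75.0 FPKM in control embryo, and at 72.7 and 61.4 FPKM in KD ESC, against 69.4 and 80.3 FPKM in control ESC, with a difference of −4.56. Nfkbia, which encodes the NF-κB inhibitor IκBα, fell to at most 0.65 FPKM in KO embryo, against 20.5 and 11.7 FPKM in control embryo. In KD ESC it stood at 64.2 and 55.6 FPKM, against 21.4 and 24.4 FPKM in control ESC. Its groups were separate in both systems with opposite directions, the ES cell effect of 1.35 was called with weights by kind of library (limma, adjusted p = 0.00321) and not in the pooled fit (0.412), and the difference was −5.03. Gpr50, an orphan receptor gene, and Ceacam20 had separate groups with opposite directions too (differences −4.49 and −4.84). In ES cells 57.6% of all genes had separate groups. Gpr50 was near the floor there, at 1.56 and 1.05 FPKM in KD ESC, against 0 and 0.414 FPKM in control ESC. Ceacam20 stood at 8.11 and 8.07 FPKM, against 1.66 and 2.30 FPKM. Both ES cell effects were called with weights (limma, adjusted p = 0.024 and 0.00371) and not in the pooled fit (0.581 and 0.520). D16Ertd519e, Tmem213, Arrdc5 and Sp8 had differences of −4.44, −4.79, −4.25 and −4.16, and each stood under 1 FPKM in all 4 ES cell libraries, so their differences describe the embryos only.

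Most maternal oocyte genes had lower values in KO embryo, and the list had low levels in ES cells. Of 53 tested members 21 fell and 1 rose in embryos, where 3.91% of all genes fell and 8.17% rose. By limma none was called in ES cells (2 higher at an unadjusted p under 0.05), and 1, Oog4, had a called difference. Negative differences were called for 0.615% of all genes. With weights by kind of library 5 fell in embryos, 3 rose and 2 fell in ES cells, and 6 had a negative difference. The shares of all genes with these weights were 1.02%, 4.21%, 6.85% and 0.851%. Oog4 stood at 11.0, 10.7 and 12.4 FPKM in KO embryo, against 63.4 and 78.8 FPKM in control embryo, and was listed at 0 in all 4 ES cell libraries. The list median was −1.50 in embryos and 0.00 in ES cells, and it stayed below 0 in embryos under each of the 4 scalings. The summed level was 33027, 21872 and 35831 FPKM in KO embryo, against 48006 and 81401 FPKM in control embryo, and 153 to 165 FPKM in the 4 ES cell libraries. With median-of-ratios scaling 13 members had a called negative difference. Pluripotency genes showed no common direction, and Dppa5a, a pluripotency-associated gene, had the 1 called difference. It stood at 2986, 1678 and 2853 FPKM in KO embryo, against 620 and 676 FPKM in control embryo, and at 356 and 446 FPKM in KD ESC, against 698 and 694 FPKM in control ESC (difference 2.71 ± 0.38, limma adjusted p = 0.0229). Tead4, a transcription factor gene of the trophectoderm, had effects of 1.98 and −1.23 and a difference of 3.22. Of 14 tested trophectoderm genes 2 rose (14.3%, against 8.17% of all genes) and 1 fell in embryos. A difference was called for 1 (7.14%, against 1.64% positive among all genes). The list median was −0.05 in embryos and −0.03 in ES cells. Its members had a positive embryo effect in 35.7% of cases, against 59.4% of all genes.

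Of the 52 genes called in ES cells, 47 had a called difference (90.4%, against 2.25% of all genes). All 5 embryo libraries stood under 1 FPKM for 39 of them (75%, against 16.2% of all genes). The pooled fit widens the intervals of ES cell effects least where the embryo libraries vary little. These shares are thus partly set by the fit and are not a result about the genes. Of the 52, 14 were microRNA symbols (26.9%, against 1.8% of all genes), which a library of polyadenylated RNA measures poorly. Tcea1, which encodes the transcription elongation factor TFIIS, was well expressed in all embryo libraries. It stood at 207, 85.2 and 182 FPKM in KO embryo, against 86.2 and 197 FPKM in control embryo, and at 65.7 and 71.5 FPKM in KD ESC, against 2.81 and 2.36 FPKM in control ESC. The embryo groups overlapped, and the difference was −4.10 ± 0.71 (SE, limma adjusted p = 0.0367). Tmsb10, which encodes the actin-binding thymosin beta 10, stood at 178, 119 and 152 FPKM in KO embryo, against 161 and 314 FPKM in control embryo, and at 25.5 and 25.8 FPKM in KD ESC, against 638 and 644 FPKM in control ESC, a difference of 3.99. S100a6, a calcium-binding protein gene, was listed at 0 in both KD ESC libraries, against 15.1 and 20.4 FPKM in control ESC, and stood at 1.47 to 2.07 FPKM in KO embryo, against 0 and 1.65 FPKM in control embryo (difference 4.96). Vmn1r47 and Lenep had differences of 3.33 and 2.84 with embryo levels of at most 0.462 FPKM.

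Most genes of collagen and matrix had lower values in KD ESC and a higher mean log2 value in KO embryo, where none was called higher. Their summed level overlapped between the embryo groups, at 111, 110 and 156 FPKM in KO embryo, against 65 and 166 FPKM in control embryo. In KD ESC it was 634 and 668 FPKM, against 926 and 903 FPKM in control ESC. Of 28 members 2 fell in embryos and 1, S100a6, fell in ES cells (3.57%, against 0.243% of all genes). With weights by kind of library limma called none in embryos (0 at an unadjusted p under 0.05) and 12 fell in ES cells. The list median was 0.56 in embryos and −0.71 in ES cells, and 22 of the 28 were higher in KO embryo and lower in KD ESC (78.6%). Lgals1, which encodes galectin 1, was lower in both, at 3.74, 4.68 and 2.06 FPKM in KO embryo, against 29.1 and 51.0 FPKM in control embryo, and at 0 and 3.29 FPKM in KD ESC, against 38.1 and 24.6 FPKM in control ESC. Its effects were −3.19 (called) and −3.93 (not called, limma adjusted p = 0.112). The 8 fibroblast markers summed to 64.3 to 101 FPKM in KO embryo, against 18.4 and 71.5 FPKM in control embryo, and to 166 and 169 FPKM in KD ESC, against 247 and 238 FPKM in control ESC, and their part in the result was not tested. Of these markers, Vim stood at 114 to 173 FPKM in the ES cell libraries and made up most of their sums. Col1a1 stood at 30.6 to 43.9 FPKM there, Col1a2 at 7.86 to 21.5 FPKM and Thy1 at 4.17 to 5.66 FPKM. Col3a1 stood at 0.919 to 3.23 FPKM, Postn at 0.494 to 1.53 FPKM and Dcn at 0.351 FPKM or less. Lum was listed at 0 in all 4. Of 66 replication-dependent histone genes 1 fell in embryos and limma called none in ES cells (0 at an unadjusted p under 0.05), where 14 fell with weights by kind of library. Of all genes tested, 3.91% fell in embryos and 6.85% fell in ES cells with weights.

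Markers of other cells also moved between embryo groups. The 8 cumulus and granulosa markers summed to 1.33 to 5.95 FPKM in KO embryo, against 17.1 and 16.1 FPKM in control embryo. Tnfaip6 made up most of the control embryo sums, and Fshr was listed at 0 in every library. They summed to 15.9 and 16.1 FPKM in KD ESC, against 20.8 and 23.5 FPKM in control ESC, and 1 of them, Ptx3, had a called difference (1.49) that was not called with weights. The 9 blood markers summed to 233 to 362 FPKM in KO embryo, against 78.3 and 195 FPKM in control embryo, and to 3.65 to 4.36 FPKM in ES cells, where 7 of the 9 were listed at 0 in all libraries. Of the haemoglobin genes, Hba-a1 was listed at 0 in all embryo libraries, while Hba-a2 stood at 0 to 54.9 FPKM and Hbb-b2 at 3.40 to 19.7 FPKM in them. S100a9 was the member with the highest level in each embryo library. The part of these markers in the embryo effects was not tested.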

How the data were processed

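The deposited tables, 1 per library, hold a level per gene as FPKM, TPM and coverage, per the file headers. The authors' FPKM values were used. The deposited TPM values served as an alternative scaling, and the deposited coverage, divided by FPKM, gave the relative depth. The submitters' processing notes name STAR (version listed as 0.6.0), StringTie, DESeq2 and the build mm9. The role of each, the annotation and the strand setting were not given in any source used. Read counts are unknown, so no counting interval is given, and depth is known only as coverage per FPKM (0.566 to 2.01).

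FPKM was summed per gene symbol, which joined 47 symbols listed at more than 1 locus. Entries with no gene name (227 to 339 per library, 0.549% to 1.19% of FPKM) were left out. Of 22619 symbols, 13980 had at least 1 FPKM in at least 2 of the 9 libraries. The pseudocount of 1 understates changes of low genes, and a gene at 0 in a group has little spread there. limma 3.58.1 (R 4.3.3, variance trend) fitted 4 group means to log2(FPKM + 1) with the embryo effect, the ES cell effect and their difference as contrasts. P-values were Benjamini-Hochberg adjusted over all genes tested and called under 0.05. Near-identical gene copies are uncertain. The fit was run on simulated data in which embryo and ES cell libraries had the same spread. The real median residual SDs were 0.63 and 0.15, so the simulation does not check the fit under that unequal spread. Tables were handled with Python 3.11.15, numpy 2.4.6 and pandas 2.3.3, and figures drawn with matplotlib 3.10.9. Promoters are from RefSeq, build GRCm38.p6.

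The members and the 31 gene lists were chosen with earlier results of these data known. Genes named were Dcaf11, Trim28 and the Zscan4 sum. To these were added the 10 largest positive and 10 largest negative called differences with separate groups in at least 1 system, without predicted, clone-named and small RNA genes. The rule also took up to 6 genes called in ES cells only, in both systems in opposite directions or in both in the same direction. From the genes that agree it took up to 8 that rose and 8 that fell, and from narrow differences up to 6. From each list with a called difference it took up to 4 members by p. Other genes named in the text were chosen after their values were seen. The alternatives were another pseudocount, other filters, scalings and weights, separate fits, a fold threshold, no variance trend, a replicate block, removal of a trend with gene length (99.1% of genes tested had a length), a fit of all 12 libraries, and leaving out each library in turn. The 3 arrest libraries entered only the fit of 12. Results of 2 genes that the rule names are not reported here, and their places were not refilled.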

Additional observations from a re-analysis of the deposited data

Results flagged for a closer look

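The difference between the embryo effect and the ES cell effect passed limma's test of the difference itself for 315 genes, and the 54 of them named in the text are given here by their log2 difference.
Of cytosolic and mitochondrial ribosomal protein genes, the differences were those of Rplp1 (2.50), Rps15 (2.53), Rps20 (2.13) and Mrps27 (3.01). Of translation and splicing, they were those of Eif2a (2.07), Eif2b3 (3.11), Eif3a (1.93) and Snrpa1 (2.95). Of the respiratory chain, they were those of Atp5g1 (4.50), Atp5l (6.15), Ndufa2 (2.98), Uqcr11 (8.57) and Uqcrh (2.93). Of proteasome and chaperone genes, they were those of Psma2 (2.90), Psma6 (3.69), Psmb7 (2.60), Psmd7 (2.88), Hsp90ab1 (1.50), Pfdn2 (2.84) and Tcp1 (2.23). Of DNA replication, mitosis, telomere, CUL4-DDB1 and autophagy genes, they were those of Mcm3 (3.35), Mcm6 (2.43), Cdk1 (2.22), Nhp2 (2.66), Nop10 (1.81), Gps1 (3.93), Map1lc3b (2.93) and Gabarapl2 (2.71). Of early embryo, pluripotency, oocyte and imprinted genes, they were those of Dppa2 (2.90), Dppa5a (2.71), Tead4 (3.22), Oog4 (−2.54), Impact (6.03) and Mcts2 (5.35). Of the marker and matrix lists, they were those of Ptx3 (1.49) and S100a6 (4.96). The other named positive differences were those of Ankmy2 (5.55), Dnph1 (4.59), Klhl10 (4.74), Lenep (2.84), Tmsb10 (3.99), Vmn1r47 (3.33) and Zfp518b (6.12). The other named negative differences were those of Arrdc5 (−4.25), Ceacam20 (−4.84), D16Ertd519e (−4.44), Gpr50 (−4.49), Nfkbia (−5.03), Sp8 (−4.16), Tcea1 (−4.10), Tmem213 (−4.79), Ubp1 (−3.92), Wbp5 (−4.56) and Zfp281 (−4.29).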

How the results depend on the processing

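As deposited, 1688 genes were called in embryos, 52 in ES cells and 315 for the difference, 2 agreed, 3 went opposite ways and 479 had a narrow difference. By limma the counts changed as follows, and the cause was not tested. In embryos, 486 were called with weights by kind of library, 4 with weights per library and 0 in separate fits (2307 at an unadjusted p under 0.05). In ES cells, 1547 were called with weights by kind, 1591 with weights per library, 128 in separate fits, 114 without a filter, 108 with all 12 libraries, 32 with quantile normalization, 28 with a pseudocount of 0.1, 17 with a minimum of 5 FPKM, 17 without the trend with gene length and 16 without the variance trend. For the difference, 199 were called with a pseudocount of 0.1 and 90 with weights per library. Genes that agree were 63 with weights by kind, 5 with quantile normalization, 1 with median-of-ratios scaling, a pseudocount of 0.1, weights per library or no length trend, and 0 with TPM scaling, all 12 libraries, a minimum of 5 FPKM, no variance trend or separate fits. Genes that go opposite ways were 34 with weights by kind, 1 with a pseudocount of 0.1, and 0 with separate fits or weights per library. Narrow differences were 4893 without a filter, 1069 in separate fits, 285 with quantile normalization, 226 without the length trend, 197 with a minimum of 5 FPKM, 153 with weights by kind, 49 with TPM scaling, 41 with a pseudocount of 0.1 and 25 with weights per library. With 1 library left out, the counts ranged from 750 to 3941 in embryos, 0 to 68 in ES cells, 0 to 2796 for the difference, 0 to 6 that agree, 0 to 5 opposite and 294 to 581 narrow. Of the values for single genes and lists, 2053 kept direction and side of the threshold, 489 lost the call, 111 gained one and 1 turned round, the Zscan4b difference (−2.56 without control embryo 1 and 1.85 without control embryo 2).

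With the replicate number as a block, 284 genes were called in embryos, and limma called 0 in ES cells (736 at an unadjusted p under 0.05) and 0 for the difference (2270), so that 0 agreed, 0 went opposite ways and 183 had a narrow difference. Deviations of same-numbered libraries correlated at −0.103 to 0.0183, so the numbers do not pair the libraries.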

Other observations

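The 2 KD ESC libraries differed from each other for the pluripotency regulator gene Esrrb, which stood at 28.6 and 244 FPKM in KD ESC, against 255 and 253 FPKM in control ESC.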
